A study of Rattus norvegicus with 4 samples.

Results

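Skeletal muscle sarcomere and calcium handling genes were followed across RNA-seq libraries of rat ear skin, as a reading of how much skeletal muscle RNA each piece of tissue yielded. The 48 members were the rows of the deposited count table whose gene name was on a given list of contractile, Z-disc, calcium and muscle energy genes, out of 54532 gene rows, and sarcomeric myosin heavy chains were kept apart. Of these, 42 had a count in at least 1 library and 35 passed a filter on low counts and were tested. The 6 members listed at 0 in all 4 libraries were Tnnc2, Myl3, Myoz2, Casq1, Trdn and Smpx, and the 7 members counted but too low to test were Tnni1, Myl2, Myoz1, Cmya5, Pvalb, Mb and Lmod3.

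The study gave SD rats, an outbred laboratory strain, an adeno-associated virus (AAV) in each ear and took the injected skin on day 3. The control group was the wild-type ear skin given AAV-control (2 libraries, 1 from each of 2 rats), and the treated group was ear skin given AAV-Fgf7, labelled as Fgf7 overexpression (2 libraries, from the other ears of the same rats). FGF7 is a growth factor that fibroblasts make and that acts on keratinocytes, and the series title concerns wound closure. The labels do not give the promoter in the virus, the cells it entered or the age and sex of the rats. The labels count as separate animals only 2 rats, so each group held 2 replicates. Both samples given AAV-Fgf7 are described with a single column name, so the second treated column was taken as rat 2 from its number and the sample title.

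Library totals ran from 1299136 to 1601321 counts, and the 6370 tested genes held 98.9% of all counts. The table lists mouse Ensembl identifiers for these rat samples, and the effect of this on the level of a single gene was not tested. Counts are of reads without molecular identifiers, so the counting intervals given here cover counting error only. By counting error alone, a gene listed at 0 may lie anywhere below 3 counts, which was 1.87 to 2.31 CPM (counts scaled to a common library total). Any reads lost through the mouse identifiers would come on top of this, so a listed 0 sets no upper limit on expression.

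Skeletal muscle shortens when myosin thick filaments pull on actin thin filaments inside the sarcomere, the repeating unit between neighbouring Z-discs. Calcium released from the sarcoplasmic reticulum binds troponin, which moves tropomyosin off actin, and calcium pumps then return it to the store. Many of these proteins exist as separate genes for fast and slow fibres, and the outer ear holds thin muscles of its own beside cartilage and skin.

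Acta1, Atp2a1, Ckm and Tnnt1 stand for the thin filament of all fibres, the fast calcium pump, the muscle energy genes and the slow thin filament. All 4 were highest in the control of rat 2 and next in the AAV-Fgf7 ear of rat 1. For these reasons their proximal promoters are shown. Each is the RefSeq sequence of the rat assembly GRCr8 for the 250 bases before the annotated gene start, 5′ to 3′ on the gene's strand. Acta1 lies at chr19:68784195-68784444 on the minus strand, Atp2a1 at chr1:190475411-190475660 on the minus strand, Ckm at chr1:88189211-88189460 on the plus strand and Tnnt1 at chr1:78348785-78349034 on the plus strand. Capitals mark matches to the motifs searched on both strands, which were the E-box CAGCTG, the MCAT element CATTCC, the TATA element TATAAA, the CArG box of serum response factor and the MEF2 site.
Acta1: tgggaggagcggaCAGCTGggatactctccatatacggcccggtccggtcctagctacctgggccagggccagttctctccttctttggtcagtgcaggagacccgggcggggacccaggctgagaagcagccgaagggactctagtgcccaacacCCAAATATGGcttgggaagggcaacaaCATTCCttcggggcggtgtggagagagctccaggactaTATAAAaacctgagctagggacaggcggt
Atp2a1: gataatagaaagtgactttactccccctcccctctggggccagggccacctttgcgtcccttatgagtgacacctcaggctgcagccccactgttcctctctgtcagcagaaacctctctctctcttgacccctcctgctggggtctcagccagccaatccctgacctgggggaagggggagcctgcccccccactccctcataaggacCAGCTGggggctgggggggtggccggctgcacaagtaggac
Ckm: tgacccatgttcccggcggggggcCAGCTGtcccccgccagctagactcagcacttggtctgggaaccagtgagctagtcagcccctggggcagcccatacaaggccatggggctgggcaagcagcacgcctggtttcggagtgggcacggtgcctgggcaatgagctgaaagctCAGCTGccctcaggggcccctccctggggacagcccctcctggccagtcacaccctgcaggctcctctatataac
Tnnt1: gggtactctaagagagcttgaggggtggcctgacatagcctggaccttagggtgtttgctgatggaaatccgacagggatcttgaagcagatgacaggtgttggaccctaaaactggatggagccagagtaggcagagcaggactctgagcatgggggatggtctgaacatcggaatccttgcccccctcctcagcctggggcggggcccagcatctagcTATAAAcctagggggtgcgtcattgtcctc
In Acta1, the skeletal muscle alpha-actin gene, the E-box began 237 bases before the start, the CArG box 94, the CATTCC match 67 and TATAAA 29. Atp2a1 held an E-box beginning 41 bases before its start, Ckm held E-boxes at 226 and 75, and Tnnt1 held TATAAA at 30.

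A window was listed for 40 of the 48 members, among 33469 windows of all genes. CAGCTG occurred in 13 of the 40 members (32.5%) and in 11.97% of all windows, and the CArG box in 3 members (7.5%; Acta1, Ldb3 and Myl3) and in 1.5% of all. The MEF2 site occurred in 7 members (17.5%) and in 2.96% of all windows, CATTCC in 6 members (15%) and in 12.1%, and TATAAA in 8 members (20%) and in 12.9%. These matches are descriptions of letters in the windows, and no readout of factor binding was used here.

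Together the members took 2.04% of all counts in the control library of rat 1, 7.35% in the control library of rat 2, 4.14% in the AAV-Fgf7 ear of rat 1 and 2.20% in that of rat 2. As levels scaled to effective library totals (TMM-scaled), the sums were 20161, 78327, 41900.3 and 21553 in the same order, which is kept for all values given library by library below. Muscle RNA stood highest in the control of rat 2 and next in the AAV-Fgf7 ear of rat 1, and the control of rat 1 and the AAV-Fgf7 ear of rat 2 lay close together, so the groups overlapped. The mean was 49244 ± 41129.8 CPM under control virus and 31727 ± 14388 CPM under AAV-Fgf7 (SD, n = 2 each). The control of rat 2 was 3.89 times the control of rat 1, while the AAV-Fgf7 ear was 2.08 times its rat's control ear in rat 1 and 0.275 times in rat 2. In whole pieces of tissue, fewer muscle fibres and less muscle RNA in each fibre cannot be told apart.

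**Figure D1:**
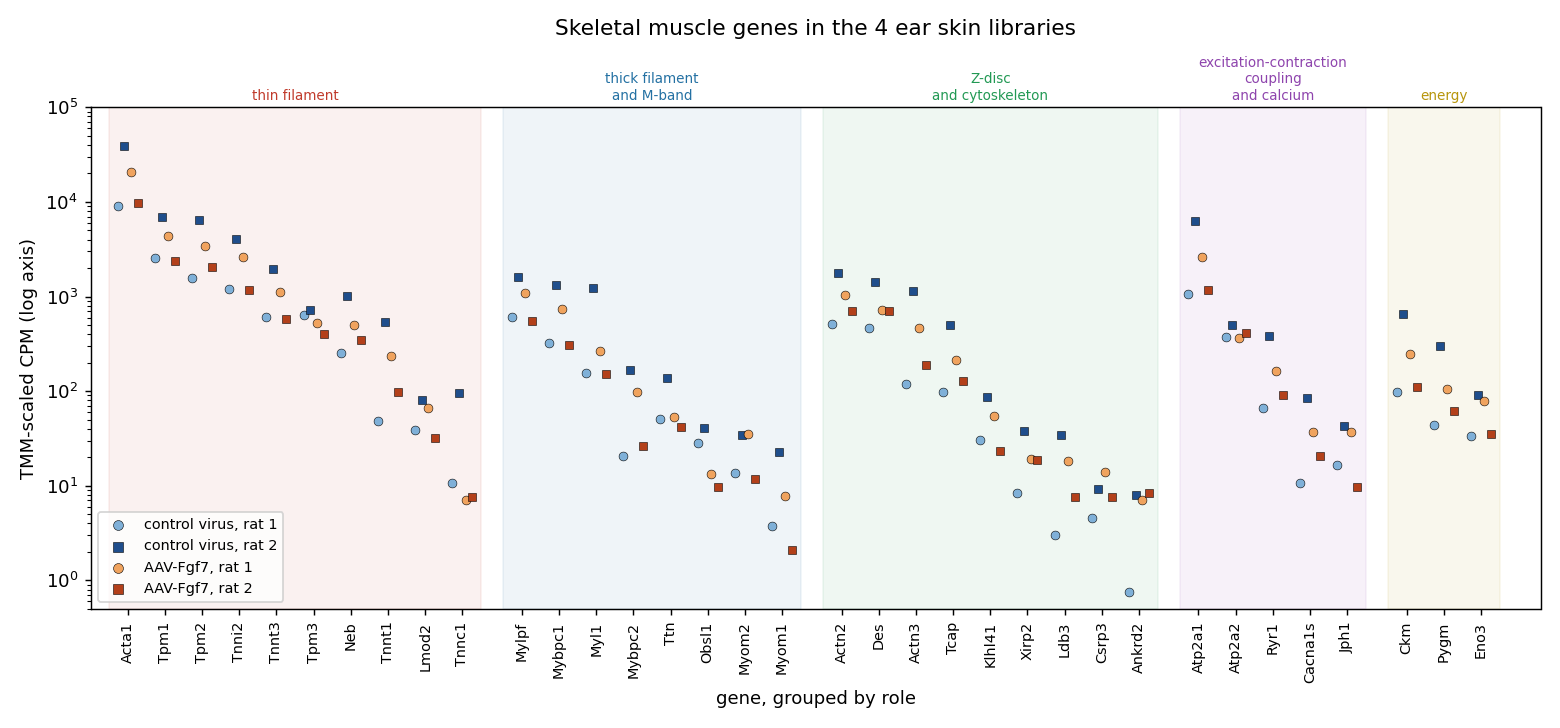
Level of each of the 35 tested muscle genes in TMM-scaled CPM (log axis), grouped by role along the horizontal axis, with 1 point per library and no averaging. The control of rat 2 (dark blue squares) is the highest point for 32 genes, and the control and AAV-Fgf7 points overlap for all but Tnnc1, Tpm3 and Obsl1.

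Across the treatment comparison, 0 of 35 tested members passed an adjusted p of 0.05 in edgeR's quasi-likelihood test with Benjamini-Hochberg adjustment, beside 0.0% of all 6370 tested genes. DESeq2 and limma-voom also called 0 members. At an unadjusted p under 0.05, 3 members (Obsl1, Tnnc1 and Tpm3) were counted, against 2.32% of all genes. The fitted log2 fold change was negative for 33 of 35 members, with a median of -0.58 against -0.02 over all tested genes, of which 3328 were negative, and it was positive only for Csrp3 (0.63) and Ankrd2 (0.76) among the tested members. That direction rested on 1 library: without the control of rat 2 the median was 0.72 and 31 of 35 were positive. Without the control of rat 1, which left a single control library, the median was -1.25 and 34 of 35 were negative.

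Most members shared the first places in the order of the libraries, which ran across the treatment. Of the 35, 30 were higher in the AAV-Fgf7 ear of rat 1 than in its control ear and lower in the AAV-Fgf7 ear of rat 2, a pattern that 29.2% of all tested genes had, and 0 members had the reverse pattern. Tnnc1, Tpm3, Obsl1 and Atp2a2 were lower in the AAV-Fgf7 ear of both rats, and Ankrd2 was higher in both. Some of these differences were near ties. Atp2a2 was almost level in rat 1, at 372 CPM in the control ear and 367 CPM in the AAV-Fgf7 ear. Tnnc1 had 14 and 10 counts in these ears of rat 1. Ankrd2 had 12 counts in each ear of rat 2, and 1 and 10 counts in rat 1. The highest level was in the control of rat 2 for 32 members, against 29.3% of all genes, and for 28 members the AAV-Fgf7 ear of rat 1 came next, against 14.9%. The control of rat 2 was at least 2 times the control of rat 1 for 32 members, against 9.73%. Both AAV-Fgf7 libraries lay below both controls for 3 members (13.3% of all genes) and above both for 0 members (14.8% of all genes).

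**Figure D2:**
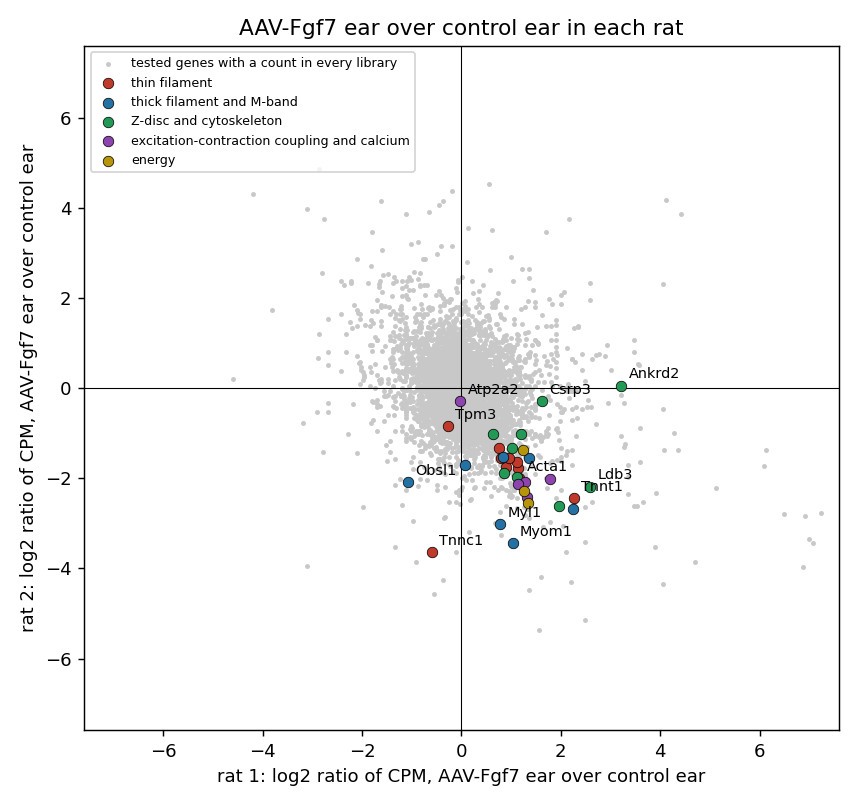
Log2 ratio of CPM, AAV-Fgf7 ear over control ear, in rat 1 (horizontal axis) and in rat 2 (vertical axis), with 1 point per gene and members coloured by role over the other tested genes in grey. The 30 members with opposite differences in the rats lie in the lower right, and Tnnc1, Tpm3, Obsl1 and Atp2a2 lie in the lower left, Atp2a2 at its right edge.

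The ratio of AAV-Fgf7 to control ear had a median over the tested members of 2.20 in rat 1 and 0.272 in rat 2, whereas over all tested genes it was 1.00 and 1.01. The median ratio between the controls, rat 2 over rat 1, was 4.17 for members and 1.00 for all genes. If the AAV-Fgf7 columns were exchanged between the rats, 19 members in place of 30 would be higher in one rat and lower in the other in the same sense. The summed level would then be 1.07 times control for rat 1 and 0.535 times for rat 2.

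Thin filament genes gave most of the muscle signal, read as the summed member level. Of 13, 12 had a count and 10 were tested, of which 8 had opposite differences in the rats and 10 were highest in the control of rat 2. Their median log2 fold change was -0.57. Acta1 alone gave 45.3%, 49.3%, 48.9% and 44.9% of all member counts, so its share of the muscle signal stayed within a narrow range while the signal itself varied 3.89 times. The table places Acta1 (ENSMUSG00000031972) on mouse chromosome 8 from 123891769 to 123894751 on the minus strand, in a mouse build that the files do not name. Acta1 stood at 9137, 38607, 20479.8 and 9683 CPM. Its levels in the control of rat 1 and the AAV-Fgf7 ear of rat 2 were nearly equal, and the AAV-Fgf7 libraries lay between the controls. The log2 fold change was -0.66 with an SE of 0.68 (edgeR adjusted p = 0.9996), and 0.72 without the control of rat 2. The adjusted p was 0.9996 for each of the 35 tested members.

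Tropomyosins, the coiled coils that lie along actin, had the same 2 libraries at the top for Tpm1 and Tpm2. Tpm1 stood at 2540, 6854, 4391 and 2354 CPM, with a log2 fold change of -0.48 (SE 0.51). Tpm2 stood at 1555, 6477, 3399 and 2067 CPM, with a log2 fold change of -0.56 (SE 0.63). In both genes the control of rat 2 was well above the other libraries, and without it both fold changes were positive (0.41 and 0.81). Tpm1 took 12.6%, 8.75%, 10.5% and 10.9% of all member counts, its smallest share where the sum was highest. Tpm2 took 7.71%, 8.27%, 8.11% and 9.59%. Whether other ear tissues added to Tpm1 and Tpm2 was not tested. Tpm3, whose products include the tropomyosin of slow fibres and forms found in nearly all cells, differed from them at 632, 729, 525 and 405 CPM. Both AAV-Fgf7 libraries lay below both controls, and the log2 fold change was -0.55 (SE 0.21; edgeR adjusted p = 0.9996).

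Troponins, the calcium switch of the thin filament, were read mostly from fast forms. Tnni2, the fast inhibitory subunit, stood at 1200.4, 4041, 2637 and 1182 CPM (log2 fold change -0.46, SE 0.61). Tnnt3, the fast tropomyosin-binding subunit, stood at 607, 1970.1, 1127 and 585 CPM (log2 fold change -0.59, SE 0.57). The control of rat 1 and the AAV-Fgf7 ear of rat 2 were again nearly equal at the low end, and both genes had a positive fold change without the control of rat 2 (0.67 and 0.50). Tnnt1, the slow counterpart, stood at 48.6, 535, 234 and 98.3 CPM (log2 fold change -0.82, SE 0.98). Its control libraries differed 11.01 times (95% counting interval 8.53 to 14.4), more than the 3.24 times (2.999 to 3.51) of Tnnt3, so slow and fast troponin T were not in a fixed proportion over the libraries.

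Tnnc1, the slow and cardiac calcium-binding subunit, had 14, 143, 10 and 11 counts, or 10.6, 95.2, 7.06 and 7.62 CPM. A single library, the control of rat 2, held most of its counts, and both AAV-Fgf7 libraries lay below both controls. The log2 fold change was -2.84 (SE 0.99; edgeR adjusted p = 0.9996), -0.53 without the control of rat 2 and -3.68 without the control of rat 1. Its fast counterpart Tnnc2 was listed at 0 in all 4 libraries, although the other fast troponin subunits were among the most counted members. Tnni1, the slow inhibitory subunit, had 1, 28, 6 and 3 counts and was not tested. Of the remaining thin filament genes, Neb, a giant ruler protein along actin, stood at 256, 1007, 499 and 345 CPM and Lmod2, which helps actin filaments to form, at 38.7, 80.5, 65.7 and 31.8 CPM. Lmod3 had 0, 2, 1 and 1 counts.

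Thick filament and M-band genes were mostly highest in the control of rat 2 too, at lower levels than Acta1. Of 10, 9 had a count and 8 were tested, of which 7 had opposite differences in the rats and 7 were highest in the control of rat 2, with a median log2 fold change of -0.82. Mylpf, the fast regulatory light chain of myosin, stood at 603, 1601, 1084 and 552 CPM. Myl1, the fast essential light chain, stood at 154, 1240.0, 264 and 153 CPM, with controls 8.04 times apart against 2.66 times for Mylpf. In Myl1 the AAV-Fgf7 ear of rat 2 was level with the lower control, and that of rat 1 was 1.71 times its control. The Myl1 log2 fold change was -1.74 (SE 0.87), and -2.57 without the control of rat 1. Mybpc1 and Mybpc2, the slow and fast myosin-binding proteins C, stood at 320, 1339, 747 and 304 CPM and at 20.5, 169, 97.5 and 26.3 CPM.

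Ttn, the spring that spans the sarcomere from Z-disc to M-band, stood at 50.9, 138, 53.7 and 42.2 CPM. Only the control of rat 2 stood apart from the other 3 libraries, with a log2 fold change of -0.98 (SE 0.49) and of -0.08 without the control of rat 2. Obsl1, an obscurin-like protein of the M-band that other tissues also express, had 37, 62, 19 and 14 counts, or 28.1, 41.3, 13.4 and 9.69 CPM. Its AAV-Fgf7 libraries lay below both controls in both rats, and the log2 fold change was -1.58 (SE 0.41; edgeR adjusted p = 0.9996), from -1.83 to -1.27 when single libraries were left out. It had the lowest unadjusted p of the members, but it was lower in the AAV-Fgf7 ear of rat 1 than in its control ear, unlike 7 of the 8 tested thick filament and M-band genes. Myom1 and Myom2, which cross-link myosin at the M-band, had 5, 34, 11 and 3 counts and 18, 52, 50 and 17 counts.

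Z-disc and cytoskeleton genes included the only positive fold changes among tested members. Of 13, 11 had a count and 9 were tested, of which 8 had opposite differences in the rats and 7 were highest in the control of rat 2, with a median log2 fold change of -0.40. Actn3, the fast-fibre alpha-actinin that anchors actin, stood at 119, 1158, 468 and 189 CPM (log2 fold change -0.96, SE 0.96; 1.46 without the control of rat 2). Actn2, present in all fibres, stood at 508, 1772, 1035 and 701 CPM. The controls differed 9.71 times for Actn3 (95% counting interval 8.25 to 11.5) and 3.49 times for Actn2. Des, the intermediate filament that ties Z-discs together and is also made by smooth muscle, stood at 468, 1426, 727 and 706 CPM, and Tcap, a cap on titin, at 97.2, 499.85, 211 and 127 CPM.

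Ldb3, a PDZ and LIM domain protein that binds alpha-actinin, had 4, 52, 26 and 11 counts. It had the largest ratio between controls among tested members at 11.4, but with a counting interval from 4.19 to 43.4, and its log2 fold change of -0.55 (SE 0.99) was 2.06 without the control of rat 2. Csrp3 and Ankrd2, which respond to stretch of muscle, had 6, 14, 20 and 11 counts and 1, 12, 10 and 12 counts. Neither had its highest level in the control of rat 2, and the ratio of 10.5 between the Ankrd2 controls rests on a single count in rat 1 (interval 1.56 to 449.7). The Ankrd2 fold change of 0.76 (SE 0.90) was -0.05 without that library. Klhl41 and Xirp2 stood at 23.5 to 86.5 and at 8.35 to 37.9 CPM, both highest in the control of rat 2. Myoz1 had 3, 15, 8 and 1 counts, and Cmya5 had 1 count in all.

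Among genes of excitation-contraction coupling and calcium handling, the tested ones were highest in the control of rat 2, by very different amounts. Of 8, 6 had a count and 5 were tested, of which 4 had opposite differences in the rats, with a median log2 fold change over the 5 of -0.74. Atp2a1, the calcium pump SERCA1 of fast fibres, stood at 1057, 6217, 2626 and 1162 CPM. Its controls were 5.88 times apart, the AAV-Fgf7 libraries lay between them, and the log2 fold change was -0.94 (SE 0.79), or 0.84 without the control of rat 2. Atp2a2, the SERCA2 pump of slow fibres, heart and, in another isoform, nearly all cells, stood at 372, 499.85, 367 and 407 CPM. Its libraries differed far less, with controls 1.34 times apart.

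Ryr1, the channel that releases calcium from the sarcoplasmic reticulum, stood at 66.8, 381, 163 and 90.01 CPM. Cacna1s, the voltage sensor that opens it, stood at 10.6, 84.5, 36.7 and 20.8 CPM. Jph1, which holds the membranes of the junction together, stood at 16.7, 42.6, 36.7 and 9.69 CPM. All 3 were highest in the control of rat 2, with the AAV-Fgf7 ear of rat 1 next. Casq1, the calcium buffer of the store, and Trdn, which links it to the release channel, were listed at 0 in every library, and Pvalb, a cytosolic calcium buffer of fast fibres, had 1, 17, 8 and 3 counts.

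Of the 4 muscle energy genes, 3 were tested, and all 3 had opposite differences in the rats and were highest in the control of rat 2, with a median log2 fold change of -1.04. Ckm, muscle creatine kinase, stood at 97.2, 654, 247 and 111 CPM. Pygm, the muscle glycogen phosphorylase, stood at 44.0, 299, 105 and 61.6 CPM. Eno3, the muscle enolase of glycolysis, stood at 33.4, 91.2, 79.1 and 35.3 CPM. The order of the libraries was the one seen for Acta1 in each of the 3. Mb, the oxygen store of slow and oxidative fibres, had 0, 0, 1 and 1 counts.

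**Figure D3:**
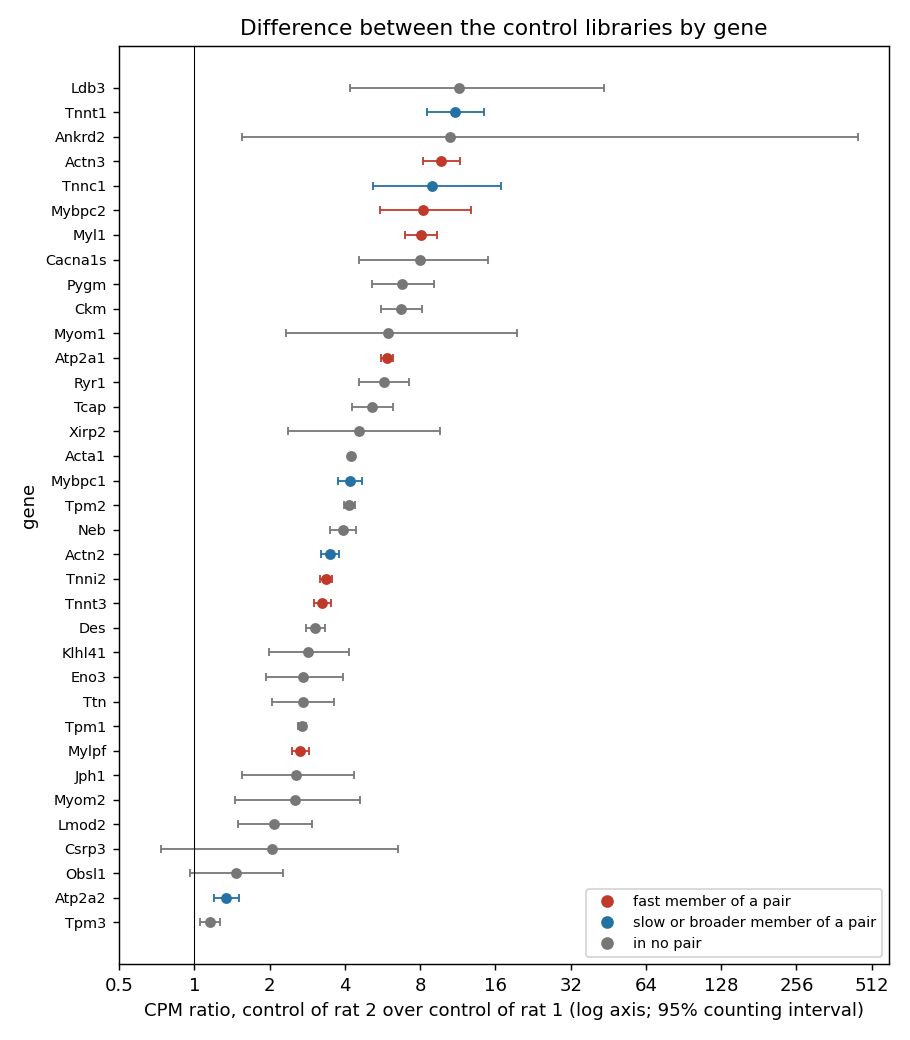
Ratio of CPM between the control libraries, rat 2 over rat 1, for each of the 35 tested members (log axis), with bars for the 95% counting interval and colours for the fast and the slow or broader member of each fast and slow pair. The ratios run from 1.15 for Tpm3 to 11.4 for Ldb3, and slow Tnnt1 and fast Actn3 both lie near the top.

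Per length of the listed gene models (FPKM), the order of members was led by Acta1 at 5860, 24670.2, 13045 and 6184 FPKM. Tnni2 came next at 774 to 2649 FPKM and Tpm2 at 527 to 2185 FPKM, and Mylpf lay at 510 to 1479 FPKM. The giant genes were low on this scale, Neb at 9.48 to 37.2 FPKM and Ttn at 0.355 to 1.16 FPKM. Mouse gene models and mouse identifiers stand behind these levels, and their part in the low value of Ttn and in the members listed at 0 was not tested.

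Fast and slow counterparts were compared as the share of each pair's counts that the slow or broader member took, in 9 pairs, of which 5 had counts of both members in every library. Tnnt1 took 7.41% of the troponin T counts in the control of rat 1 (95% Wilson interval 5.84% to 9.35%), 21.4% in the control of rat 2 (20.1% to 22.7%), 17.2% in the AAV-Fgf7 ear of rat 1 (15.6% to 18.9%) and 14.4% in that of rat 2 (12.3% to 16.7%). The AAV-Fgf7 shares lay between the controls, whose intervals did not overlap. Tnni1 took 0.0632%, 0.459%, 0.160% and 0.175% of troponin I counts, with the same library highest. Over the 3 troponin pairs together the slow share was 3.21%, 9.74%, 6.11% and 5.76%, so fast forms held most troponin counts, with Tnnc2 listed at 0.

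The other pairs had a lower share in the control of rat 2 than in that of rat 1. Actn2 took 81.0%, 60.5%, 68.8% and 78.8% of alpha-actinin counts, lowest where muscle RNA was highest. Atp2a2 took 26.0%, 7.44%, 12.2% and 25.9% of pump counts, in the same order. Mybpc1 took 94.0%, 88.8%, 88.5% and 92.0%. Actn2 and Mybpc1 are made in fibres of both kinds and Atp2a2 also outside muscle, so these shares do not count slow fibres. In the remaining pairs the slow light chains Myl3 and Myl2 had 0 counts in all libraries and 3 counts in the control of rat 2, against 203 to 1863 counts of Myl1 and 794 to 2405 of Mylpf, and Myoz2 was listed at 0.

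**Figure D4:**
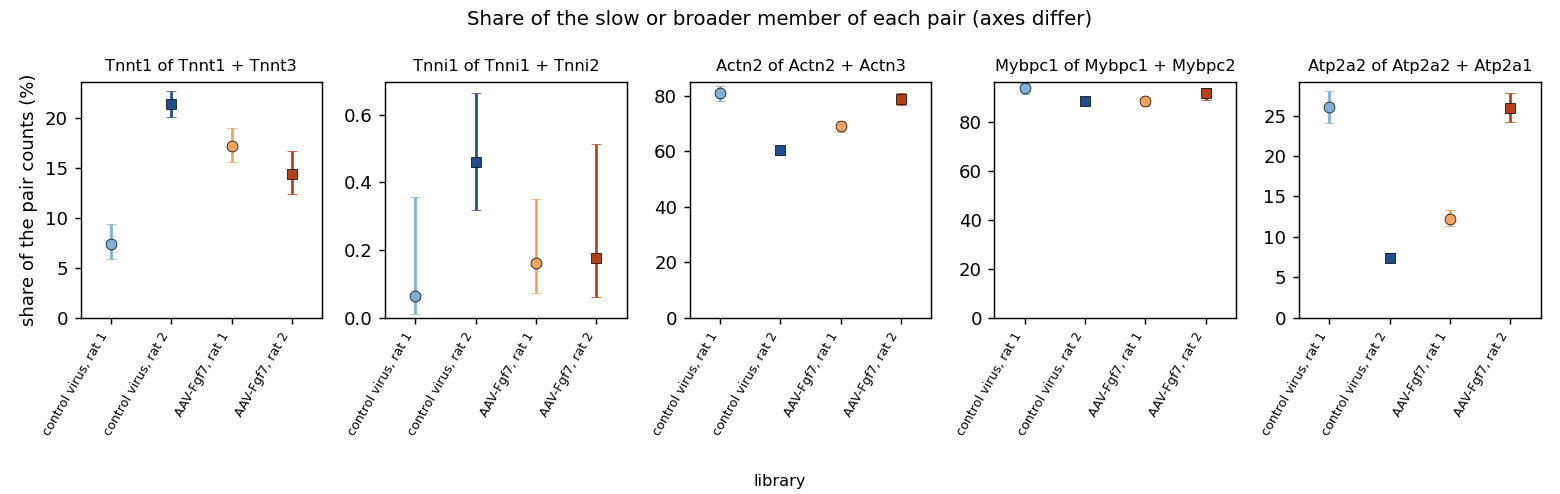
Share of pair counts (%) held by the slow or broader member in each library for the 5 pairs with counts of both members throughout, with bars for the 95% Wilson interval and vertical axes that start at 0 and differ between panels. Tnnt1 and Tnni1 are highest in the control of rat 2, where Actn2 and Atp2a2 are lowest.

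None of these 5 pairs separated the treatments. The exact permutation test over libraries (two-sided) of the log2 fast to slow ratio gave p = 0.667 for the myosin-binding protein C pair and p = 1 for the other 4, each 1 after Benjamini-Hochberg adjustment, and with 2 libraries against 2 the smallest possible p is 0.333. Over all 9 pairs the slow or broader members took 25.1%, 20.6%, 22.4% and 28.3% of the counts. Actn2, Mybpc1 and Atp2a2 are in this pooled share, so it does not count slow fibres. Between the controls it ran opposite to the troponin share, which was 3.21% in rat 1 and 9.74% in rat 2. The means of the pooled share were 22.8% ± 3.15 under control virus and 25.3% ± 4.21 under AAV-Fgf7 (SD, n = 2 each). The difference of 2.49 percentage points was smaller than the spread in either group. Per length, in FPKM, the share was 12.03%, 12.5%, 11.8% and 14.7%. The ratio between controls did not divide fast from slow genes: its median was 5.88 over the 7 tested fast members of pairs, while it was 11.01 for slow Tnnt1, 8.95 for slow Tnnc1 and, for the broader Mybpc1, Actn2 and Atp2a2, 4.19, 3.49 and 1.34.

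Sarcomeric myosin heavy chains, the motors themselves, had the same order, with 2049 to 7620.2 CPM in sum and all 8 tested genes highest in the control of rat 2 and opposite between the rats. Myh7, the slow motor, had 2, 423, 56 and 28 counts, and Myh2, a fast one, 1070, 5001, 2446 and 1571. Other muscle genes were counted by list, with 0 called by edgeR in any of them. Of 13 tested further sarcomere and Z-disc genes, 12 had opposite differences in the rats and 10 were highest in the control of rat 2. The counts were 8 and 8 of 8 muscle energy genes and 5 and 5 of 5 membrane and junction genes. They were 5 and 5 of 8 further calcium and coupling genes and 5 and 5 of 9 muscle regulators. Over all tested genes the shares were 29.2% and 29.3%. The summed levels differed between the controls 3.49 times for the further sarcomere and Z-disc genes and 3.94 times for the energy genes. The ratio was 2.14 for membrane and junction genes, 1.85 for calcium and coupling genes and only 1.26 for the regulators.

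Markers of other muscle kinds and of muscle repair were read beside the members. Of 10 heart muscle markers, 6 had a count, and Nppa, Nppb, Myl7 and Mybpc3 were listed at 0. Their summed level of 41.0, 345, 146 and 59.5 CPM came mainly from Myh6, with 10, 432, 159 and 36 counts, and Myl4, with 43, 79, 34 and 41 counts, and Myl4 was the larger in the control of rat 1 and the AAV-Fgf7 ear of rat 2. Satellite cell and regeneration markers summed to 140, 497, 387 and 196 CPM, carried mostly by the developmental myosins Myh3, with 80, 323, 283 and 148 counts, and Myh8, with 44, 281, 190 and 56 counts. Of the regulators in that list, Pax7 had 0, 3, 8 and 2 counts and Myod1 2, 2, 1 and 2. Myog had 0, 8, 7 and 4 counts and Myf5 0, 0, 1 and 0. Smooth muscle markers other than Des summed to 301, 485, 392 and 420.3 CPM, a much narrower range than the skeletal members. Of 4 tested, 3 were opposite between the rats and 3 were highest in the control of rat 2. Acta2 was the largest part of the sum, at 184, 224, 198 and 237 CPM.

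Markers of other ear tissues moved with the muscle genes in part. Cartilage markers summed to 673, 2243, 1197 and 686 CPM, the order of the summed muscle genes, and all 8 tested were highest in the control of rat 2 and opposite between the rats. Adipocyte markers summed to 290.0, 569.7, 356 and 344 CPM, again in that order, but only 3 of 10 were tested. Most of this sum was Pparg, at 232, 354, 253 and 282 CPM. Its level in the AAV-Fgf7 ear of rat 2 was above that of rat 1, unlike the sum. All 3 tested were highest in the control of rat 2 and opposite between the rats. Hair follicle markers, at 91.1, 1624, 4885 and 302 CPM, were opposite between the rats in 13 of 13 tested genes but highest in the AAV-Fgf7 ear of rat 1. Epidermal markers followed another order, at 2164, 1705, 2751 and 6215 CPM, with 0 of 8 tested opposite in that sense. Dermal fibroblast markers ran from 37087 to 57913 CPM, Schwann cell markers from 1276 to 1602 CPM and endothelial markers from 139 to 170.4 CPM. Opposite between the rats and highest in the control of rat 2 were 5 and 4 of 7 tested fibroblast markers. The counts were 2 and 4 of 7 Schwann cell markers and 2 and 2 of 4 endothelial markers. The part of these other tissues in the muscle values was not tested.

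**Figure D5:**
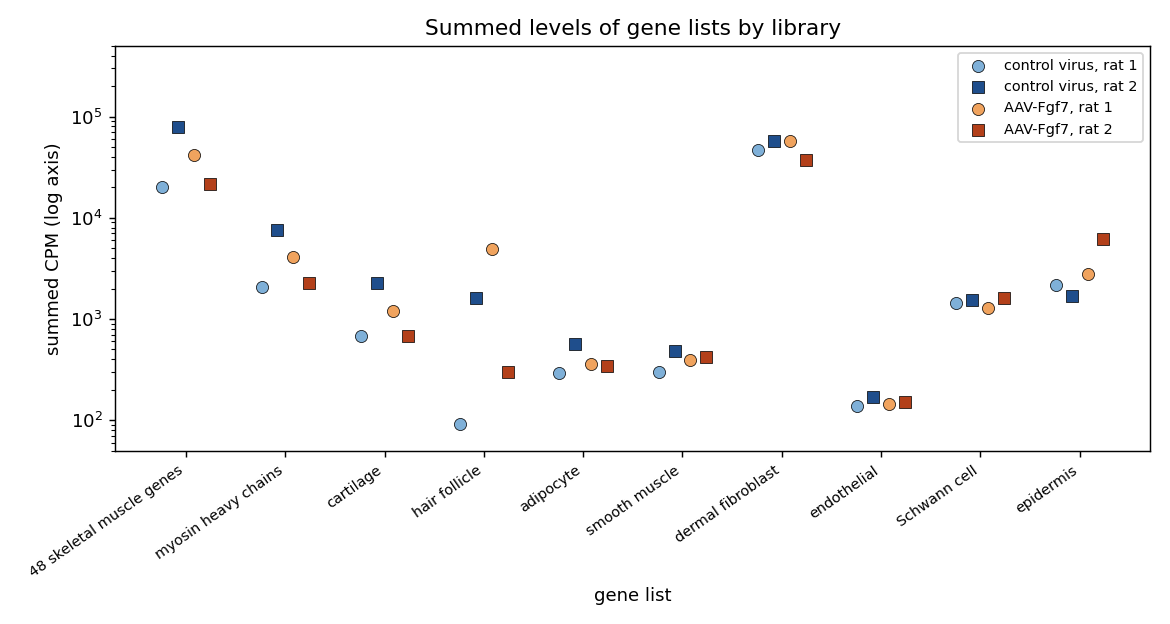
Summed TMM-scaled CPM (log axis) of the 48 members, the myosin heavy chains and 8 marker lists of ear tissues in each library, with 1 point per library. Muscle, myosin heavy chain, cartilage and adipocyte sums share 1 order of the libraries, with the control of rat 2 highest. The epidermal sum is highest in the AAV-Fgf7 ear of rat 2.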

How the data were processed

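Messenger RNA of 4 rat ear skin libraries (2 rats, 1 ear with control virus and 1 with AAV-Fgf7) was sequenced, and per the labels' protocols it was enriched by oligo(dT) or by rRNA depletion, which is left unspecified. The authors deposited raw counts per gene and FPKM. The sources used here name no aligner or counter, and the submitters' processing notes name the rat build Rnor_6.0 (rn6), while all 54532 identifiers in the table are mouse Ensembl ones. The deposited FPKM equalled the count over listed length and an effective library total.

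The count test used edgeR 4.0.16 in R 4.3.3 on the deposited counts with filterByExpr, TMM factors (0.948 to 1.03) and glmQLFTest, two-sided, adjusted over 6370 genes at 0.05. SEs were the log2 fold change over the root of F. The common biological coefficient of variation was 29.1%. The chi-square per degree of freedom was 18.8 between controls and 11.4 between AAV-Fgf7 libraries, so no replicate pair was counted as 1 sample. Ratios and shares carry 95% intervals, and permutation tests used scipy 1.17.1. Alternatives were DESeq2 1.42.0, limma 3.58.1 (voom, and log2 FPKM plus 1 or 0.1), other scalings, no filter, a rat block and leaving out each library. The script was tested on simulated data.

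Members and lists were chosen with earlier results of these data known. Full values were printed for fast and slow pairs, the 6 members with most counts, the 4 of lowest p and the 4 with the largest control ratio, and other members were given by shorter values. Ear side was not used, because titles and the design text give opposite sides.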

Additional observations from a re-analysis of the deposited data

How the results depend on the processing

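With 2 libraries a group, large differences could also go uncalled. Tnnc1, with a log2 fold change of -2.84, had an edgeR adjusted p of 0.9996. A lack of calls therefore does not show a lack of difference. The direction of the members depended on which control library was used. Genes called by edgeR numbered 0, 3 with no filter on low counts, 4 with DESeq2, and 0 to 19 when single libraries were left out, and members called ranged from 0 to 6 in the same way, where the lone library was assumed to vary like the other group. The median member log2 fold change then ranged from -1.25 to 0.72, the summed level difference from -46600.3 to 11566 CPM, and the slow share difference from -0.49 to 5.46 percentage points. That difference was 1.96 without the Atp2a pair, 0.97 in FPKM and -0.54, the other direction, in the troponin pairs alone. With a replicate block by rat the median was -0.35 with 0 calls and 75 genes at an unadjusted p under 0.05, and with the crossed replicate block, chosen after seeing the data, -0.37 with 0 calls and 301 such genes, where deviations of same-numbered libraries had r = -0.30. Counted with crossed ears, 19 members were opposite.

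Leaving out single libraries gave log2 fold changes from -1.36 to 0.72 for Acta1, -1.82 to 1.46 for Actn3, -1.69 to 1.77 for Tnnt1, -1.20 to 0.50 for Tnnt3, -1.14 to 0.67 for Tnni2, -1.02 to 0.41 for Tpm1, -1.24 to 0.81 for Tpm2, -1.41 to 2.06 for Ldb3, -1.71 to 0.84 for Atp2a1 and -0.054 to 3.20 for Ankrd2. Ldb3 was 0.032 with limma-voom and 0.13 on FPKM with a pseudocount of 0.1, and the cause was not tested. Of the 35 members, 29 reversed without the control of rat 2, 6 without the AAV-Fgf7 library of rat 2 and 1 without the control of rat 1, while 35 kept their direction with DESeq2, with DESeq2's size factors in edgeR and with the replicate block. With library totals alone 1 reversed (Myom2, whose log2 fold change is near 0), and 2 reversed with limma-voom and on FPKM with the lower pseudocount (Ldb3 and Xirp2).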
